A study of Mus musculus with 8 samples.

Results

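The genes described here carry glucose into the cell, break it down to pyruvate and lactate, and store or release it as glycogen. They were chosen by symbol from a list of 33 genes, which leaves out Gapdh. The deposited count table, which holds 56748 genes, matched 32 of the 33 symbols with 33 rows, since Aldoa has 2. The table does not hold the symbol Gyg1 and lists glycogenin under Gyg, a gene for which RefSeq gives Gyg1 as a synonym, so Gyg is given by its values and kept out of the counts. The second Aldoa row (ENSMUSG00000114515) had between 0 and 15 counts a library and was too low to test, which left 32 tested genes.

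The adult heart takes up glucose mainly through the insulin-responsive carrier GLUT4 and the basal carrier GLUT1, and hexokinases trap it as glucose 6-phosphate. From there it passes down glycolysis to pyruvate, which becomes lactate or enters mitochondria through pyruvate dehydrogenase, or it is built into glycogen and later released by glycogen phosphorylase. The healthy adult heart burns mostly fatty acids, and pressure overload is known for a shift of fuel use towards glucose.

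RNA sequencing libraries came from whole hearts of C56BL mice (so spelled in the labels), labelled as 3 to 4 months old, 56 days after surgery that narrowed the aorta between the innominate and the left carotid artery. Mice whose right-to-left carotid flow ratio fell below 3 or above 25 had been excluded, per the labels. The CS7KO hearts are labelled as lacking Smad7, an inhibitor of TGF-beta receptor signalling, in cardiomyocytes only, where it was removed by Cre expressed from the promoter of alpha myosin heavy chain, and the CRE hearts carried that Cre as the control. Whether the controls carried the same Smad7 allele before excision is not given in the labels. Both groups shared the Cre and the operation, no unoperated heart was analysed here, and other heart cells of the knockout keep Smad7. Each group had 4 libraries, the controls CRE 1, 2, 3 and 5 and the knockouts CS7KO 1 to 4; CRE 1, CRE 2, CS7KO 1 and CS7KO 2 were labelled male and the others female. The series design calls the samples independent.

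Totals ranged from 16476420 counts in CRE 5 to 40181492 in CS7KO 3, and values are CPM, read counts relative to the TMM-adjusted size of each library. A gene counted 0 times could still have a level of up to 3 counts, which is 0.064 CPM in the deepest library and 0.363 CPM in the shallowest. Smad7 itself had 17.6, 25.5, 25.1 and 45.3 CPM in controls 1, 2, 3 and 5, against 19.8, 13.3, 27.7 and 12.3 CPM in knockouts 1 to 4, so the groups overlapped (log2 fold change -0.59, SE 0.34, edgeR adjusted p = 0.509) and the genotype labels could not be checked by it. The CRE libraries stood apart from each other. The share of counts in mitochondrially encoded genes was 15%, 20.3%, 41.1% and 69.8% in controls 1, 2, 3 and 5, against 20.2% to 24.9% in the knockouts. CRE 1 had few genes of low count: 537 genes lay between 1 and 9 counts there, and 5848 to 19697 elsewhere. With low counts so scarce, a 0 in CRE 1 may stand for more than 3 counts. The summed level of 7 cardiomyocyte markers ranged from 16459 to 41792 CPM in CRE, lowest in CRE 5, and from 31562 to 40996 CPM in CS7KO. That of 6 endothelial markers ranged from 687 to 1380 CPM in CRE and from 370 to 802 CPM in CS7KO, and all 6 had a fold change below 0. So had all 5 smooth muscle and pericyte markers and all 5 macrophage and monocyte markers. Of 5 fibroblast markers 2 were higher and 3 lower, and of 5 erythroid markers 4 were higher and 1 lower. Adipocyte markers summed to between 0 and 2.89 CPM, and the skeletal muscle myosins Myh4, Myh2 and Myh1 were at or near 0. In whole heart RNA, fewer cells of a type and less RNA per cell cannot be told apart.

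Genes of glucose uptake, glycolysis and glycogen mostly had fold changes above 0 for CS7KO over CRE hearts, but no single one passed the test. Of the 32 tested genes 29 had a higher fitted level in CS7KO and 3, Pfkfb1, Pgam2 and Eno3, a lower one. Their median log2 fold change was 0.73, against 0.03 for all 16002 genes tested, whose quartiles were -0.40 and 0.47. A fold change above 0 was seen in 51.9% of all genes. The 7 cardiomyocyte markers had a median of 0.68, with 5 higher and 2 lower, so a median of this size was not particular to the glucose genes. The part of cell make-up in it was not tested. None of the 32 had an edgeR adjusted p under 0.05, a threshold passed by 6 of the 16002 genes (0.0375%, with 0.0187% in each direction), and the smallest adjusted p among them was 0.280. At an unadjusted p under 0.05, 13 lay higher and 0 lower, where 6.12% of all genes lay higher, 6.52% lower and 12.6% in either direction. DESeq2, run as an alternative, called 4 of them higher and 0 lower: Hk1, Pgam1, Pdk1 and Pygb (1.55% of all genes were called higher, 1.59% lower and 3.14% in all).

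In 10 genes all CS7KO libraries lay above all CRE libraries, and in 0 below, where 6.16% of all genes separated upwards, 4.13% downwards and 10.3% in either direction. These were the glucose carriers Slc2a1 and Slc2a4, the hexokinase Hk1, the glycolytic mutase Pgam1, the pyruvate dehydrogenase kinases Pdk1 and Pdk2, and 4 glycogen genes, Ugp2, Pygm, Pygb and Pgm1. All 3 glycogen breakdown genes and both kinases were among them, and 1 of the 8 tested genes of lower glycolysis, from Aldoa to Pkm.

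**Figure D1:**
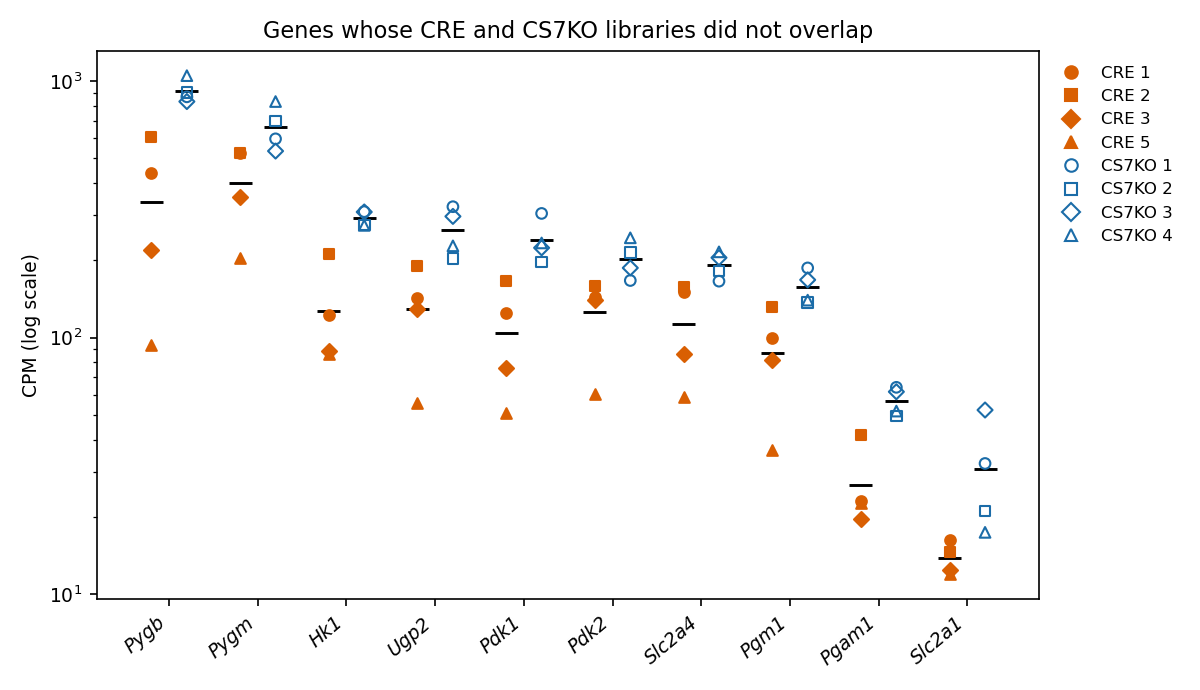
CPM on a log scale of the 10 genes whose libraries did not overlap, with each CRE library as a filled orange symbol, each CS7KO library as an open blue one and a black bar at each group's mean. CRE 5 is the lowest library in most of the genes, as for Pygb at 93.3 CPM, and CRE 2 lies closest to the CS7KO libraries in most of them, as for Hk1 at 211 CPM.

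Both main carriers had fold changes above 0, and neither passed the edgeR test. Slc2a1, which encodes the basal carrier GLUT1, stood at 16.2, 14.6, 12.4 and 12.0 CPM in controls 1, 2, 3 and 5, against 32.3, 21.1, 52.2 and 17.4 CPM in knockouts 1 to 4. The CRE libraries lay close together, while those of CS7KO ranged widely, with CS7KO 3 the highest and CS7KO 4 just above CRE 1. The log2 fold change was 1.15 (SE 0.37, 95% interval 0.34 to 1.97, edgeR adjusted p = 0.295). Slc2a4, which encodes the insulin-responsive GLUT4, was at 150, 158, 86.1 and 58.5 CPM in controls 1, 2, 3 and 5, against 166, 182, 205 and 216 CPM in knockouts 1 to 4. CRE 1 and CRE 2 came near CS7KO 1, and CS7KO 3 and CS7KO 4 were the highest. The log2 fold change was 0.86 with all libraries (SE 0.34, edgeR adjusted p = 0.352) and 0.12 without CRE 3 and CRE 5. That fit keeps a term for labelled sex and has no female control. It therefore compares CRE 1 and CRE 2 with CS7KO 1 and CS7KO 2 alone, as does every fold change given below without CRE 3 and CRE 5. Per base of gene length Slc2a4 was the more abundant carrier, at 55.3 ± 6.58 RPKM against 8.77 ± 4.47 for Slc2a1 in CS7KO (SD, n = 4 each). Slc2a3, the carrier best known from neurons, was low, at 0, 2.54, 6.65 and 4.59 CPM in controls 1, 2, 3 and 5, against 3.10 to 5.40 CPM in CS7KO. Its libraries overlapped.

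Both hexokinases, which trap glucose in the cell, had fold changes above 0, and neither passed the edgeR test. Hk1 (ENSMUSG00000037012, chromosome 10 from 62104634 to 62215687 in the deposited table, whose build is unsettled) had 123, 211, 88.5 and 86.0 CPM in controls 1, 2, 3 and 5, against 310, 275, 309 and 274 CPM in knockouts 1 to 4. The 4 CS7KO hearts were nearly equal and all above CRE 2, the highest control. The log2 fold change was 1.27 (SE 0.32, 95% interval 0.56 to 1.99, edgeR adjusted p = 0.280; DESeq2 adjusted p = 0.00485). Hk2, the insulin-regulated hexokinase of muscle, had 80.8, 137, 49.2 and 32.3 CPM in controls 1, 2, 3 and 5, against 147, 130, 200 and 150 CPM in knockouts 1 to 4. CRE 2 lay above CS7KO 2, so the groups overlapped (log2 fold change 1.22, SE 0.41, adjusted p = 0.303; 0.30 without CRE 3 and CRE 5). The ratio of Hk2 to Hk1 did not separate the groups, with a mean log2 ratio per length of -0.36 ± 0.38 in CRE and -0.40 ± 0.21 in CS7KO (exact permutation test on both sides, p = 0.886). Gpi1, the isomerase of the next step, overlapped, at 435 to 1131 CPM in CRE and 693 to 802 CPM in CS7KO (log2 0.27, SE 0.38), and CRE 1 lay above all others.

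**Figure D2:**
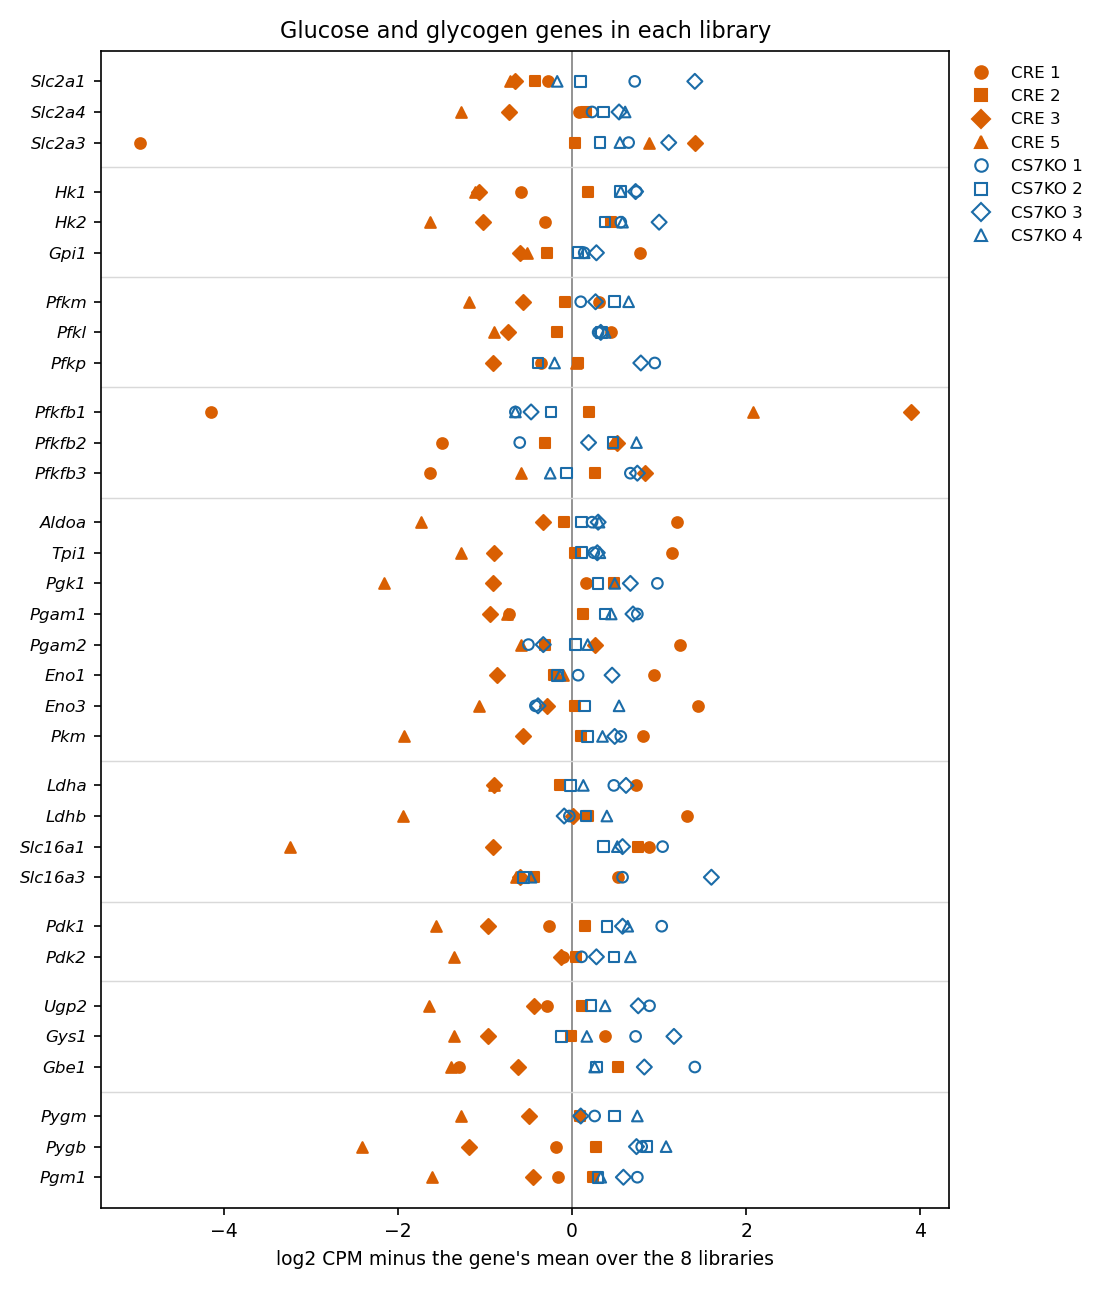
Each library's log2 CPM for the 32 tested genes minus that gene's mean over the 8 libraries, in order along the pathway, with grey lines between steps, filled orange symbols for CRE and open blue symbols for CS7KO. CRE 3 and CRE 5 lie left of 0 in most genes, with medians of -0.61 and -1.23, and CRE 1 lies left in some steps and far right in others, such as Eno3 and Ldhb.

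Phosphofructokinase, the committed step of glycolysis, comes in 3 isoforms named for muscle, liver and platelet, and none of them separated the groups. Pfkm, the muscle form and the most abundant per length (167 ± 27.7 RPKM in CS7KO), was at 526, 400, 289 and 187 CPM in controls 1, 2, 3 and 5, against 455, 598, 512 and 665 CPM in knockouts 1 to 4. Pfkl was at 140, 91.3, 61.3 and 55.0 CPM in controls 1, 2, 3 and 5, and between 126 and 134 CPM in every CS7KO library. In both genes CRE 1 lay among or above the CS7KO libraries, and CRE 2, 3 and 5 below all of them. Pfkp was at 96.3, 130, 66.0 and 128 CPM in controls 1, 2, 3 and 5, against 240, 94.4, 214 and 108 CPM in knockouts 1 to 4, so that CS7KO 1 and 3 were high and CS7KO 2 and 4 were within the range of the controls. The log2 fold changes were 0.75 for Pfkm (SE 0.36), 0.66 for Pfkl (SE 0.30) and 0.65 for Pfkp (SE 0.38), with edgeR adjusted p-values from 0.394 to 0.522.

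The bifunctional Pfkfb enzymes make and degrade fructose 2,6-bisphosphate, the activator of phosphofructokinase. Pfkfb2, the heart isoform, was at 10.4, 23.6, 42.1 and 40.7 CPM in controls 1, 2, 3 and 5, against 19.4, 40.5, 33.4 and 49.1 CPM in knockouts 1 to 4. Pfkfb3, an inducible isoform, was at 5.38, 20.1, 30.3 and 11.2 CPM in controls 1, 2, 3 and 5, against 26.9, 16.1, 28.4 and 14.2 CPM in knockouts 1 to 4. CRE 1 was the lowest library for both genes, and the groups overlapped throughout (log2 0.40, SE 0.36, and 0.39, SE 0.49). Pfkfb1, known from liver and skeletal muscle, had 0 counts in CRE 1 and 1.57, 21.3 and 6.04 CPM in CRE 2, 3 and 5, against 0.837 to 1.15 CPM in CS7KO. CRE 3 was the highest by far, and the 0 in CRE 1, where low counts were scarce, may not be bounded by 3 counts. The fitted log2 fold change was -1.86 (SE 1.33, 95% interval -4.82 to 1.10) and 0.26 without CRE 3 and CRE 5. Pfkfb1 overlaps Apex2 on the opposite strand in the deposited table, with 801 counts in all against 766 for Apex2. Without strand information, reads from sequence that the 2 genes share cannot be told apart.

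Lower glycolysis held abundant transcripts, and the groups overlapped for all of its 8 tested genes except Pgam1. Per length the highest levels among them in CS7KO were those of Aldoa, the muscle aldolase, at 859 ± 51.9 RPKM and Eno3, the muscle enolase, at 426 ± 140 RPKM (SD, n = 4 each). Aldoa was at 637 to 4863 CPM in CRE and 2292 to 2623 CPM in CS7KO, Tpi1, the triose isomerase, at 223 to 1204 and 584 to 678 CPM, and Pkm, the pyruvate kinase, at 176 to 1182 and 762 to 992 CPM. In all 3 CRE 1 lay above every CS7KO library and CRE 5 lowest of all. Eno3 was at 1998, 747, 597 and 348 CPM in controls 1, 2, 3 and 5, against 544, 805, 556 and 1057 CPM in knockouts 1 to 4. Eno1, the enolase of most tissues, was at 481, 217, 137 and 234 CPM in controls 1, 2, 3 and 5, against 262, 222, 345 and 227 CPM in knockouts 1 to 4. Both enolases had controls on either side of the knockouts, with log2 fold changes of -0.13 (SE 0.53) and 0.05 (SE 0.40). For Aldoa, Tpi1 and Pkm these were 0.33 (SE 0.55), 0.43 (SE 0.48) and 0.70 (SE 0.48); the sign turned without CRE 3 and CRE 5, to -0.56, -0.56 and -0.16.

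Pgk1 and Pgam1 had the largest fold changes of lower glycolysis. Pgk1, the phosphoglycerate kinase that makes the first ATP of the pathway, was at 351, 437, 166 and 70 CPM in controls 1, 2, 3 and 5, against 617, 387, 499 and 440 CPM in knockouts 1 to 4. CRE 2 lay above CS7KO 2 and level with CS7KO 4 (log2 fold change 1.17, SE 0.46, edgeR adjusted p = 0.344; 0.31 without CRE 3 and CRE 5). Pgam1 (ENSMUSG00000011752, chromosome 19 from 41900362 to 41907099 in the deposited table), the mutase form of most tissues, was at 23.0, 41.6, 19.7 and 22.6 CPM in controls 1, 2, 3 and 5, against 64.0, 49.5, 61.5 and 51.7 CPM in knockouts 1 to 4. Each CS7KO heart lay above each control, with CRE 2 the nearest (log2 1.12, SE 0.28, 95% interval 0.49 to 1.74, adjusted p = 0.280; DESeq2 adjusted p = 0.0180). Pgam2, the muscle form of the same enzyme, went the other way in its fitted value, at 803, 273, 406 and 227 CPM in controls 1, 2, 3 and 5, against 239, 347, 270 and 383 CPM in knockouts 1 to 4. Its groups overlapped (log2 -0.41, SE 0.43, adjusted p = 0.744). Pgam1 made up 1.2%, 6.08%, 2.02% and 4.05% of the per-length sum of the pair in controls 1, 2, 3 and 5, against 10.2%, 5.7%, 8.8% and 5.41% in knockouts 1 to 4. The log2 ratio of Pgam1 to Pgam2 averaged -5.12 ± 1.07 in CRE and -3.67 ± 0.49 in CS7KO, a difference of 1.45 that did not pass (exact permutation test on both sides over 70 assignments, p = 0.0857, adjusted over 10 ratios 0.429).

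**Figure D3:**
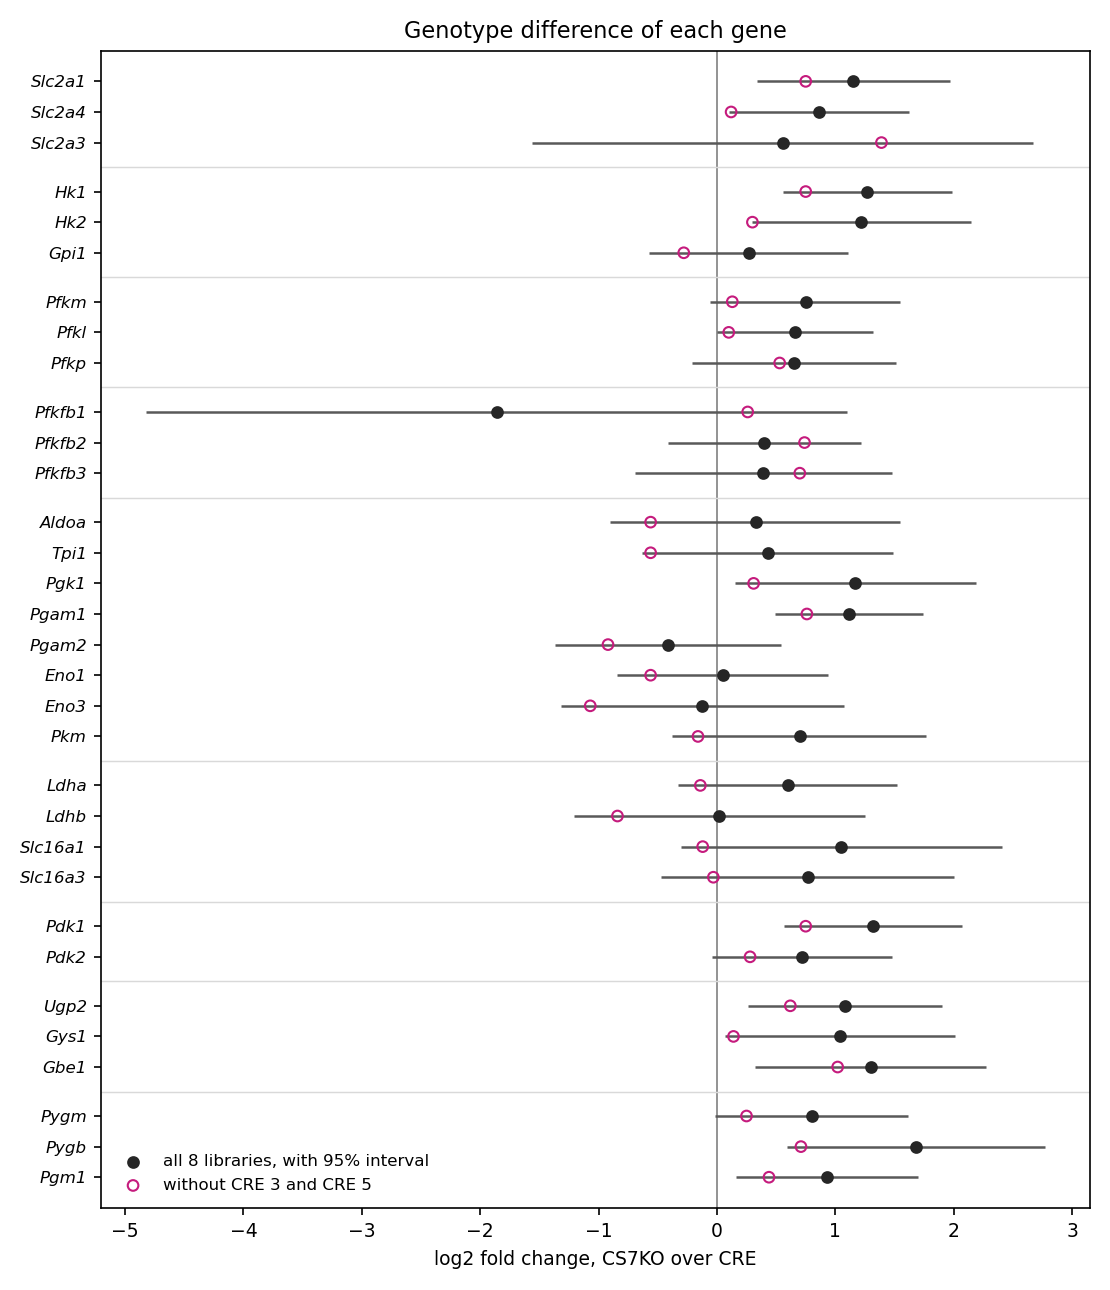
Log2 fold change of CS7KO over CRE for the 32 tested genes, in order along the pathway, from all 8 libraries with 95% intervals (black) and without CRE 3 and CRE 5 (open pink circles). With all libraries 29 of 32 points lie right of 0, from Pygb at 1.68 to Pfkfb1 at -1.86. Without the 2 controls the difference rests on the libraries labelled male. There 21 of 32 points lie right of 0, and most move left, as Slc2a4 from 0.86 to 0.12.

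Pyruvate at the end of glycolysis goes to lactate or to mitochondria. Ldha, whose subunit favours lactate formation, was at 1024, 562, 331 and 331 CPM in controls 1, 2, 3 and 5, against 863, 609, 952 and 674 CPM in knockouts 1 to 4. Ldhb, the heart subunit, was at 1824, 830, 734 and 190 CPM in controls 1, 2, 3 and 5, against 717, 816, 684 and 961 CPM in knockouts 1 to 4. In both genes CRE 1 was the highest of the 8 libraries and CRE 5 the lowest or level with the lowest, so the wide control range enclosed the knockout hearts (log2 0.60, SE 0.42, and 0.02, SE 0.55). Slc16a1, the lactate carrier MCT1, was at 225, 208, 65.1 and 12.9 CPM in controls 1, 2, 3 and 5, against 252, 158, 183 and 175 CPM in knockouts 1 to 4. CRE 1 and CRE 2 were within the range of CS7KO, and CRE 5 was far below it (log2 1.05, SE 0.61; -0.12 without CRE 3 and CRE 5). Slc16a3, the exporter MCT4, was low, at 11.2, 5.68, 5.07 and 4.95 CPM in controls 1, 2, 3 and 5, against 11.7, 5.23, 23.6 and 5.58 CPM in knockouts 1 to 4. It overlaps Csnk1d on the opposite strand, with 2186 counts in all against 11735 for Csnk1d. Reads from sequence shared with Csnk1d cannot be told apart without strand. Among other opposite-strand overlaps were Yod1 with Pfkfb2, Pitrm1 with Pfkp, Ruvbl2 with Gys1 and Itgb3bp with Pgm1. The counts of these 4 neighbours equalled 21.9%, 20.2%, 14.4% and 6.08% of those of the gene they overlap.

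The kinases that switch pyruvate dehydrogenase off, and so hold pyruvate back from oxidation, had fold changes above 0, though none passed the edgeR test. Pdk1 (ENSMUSG00000006494, chromosome 2 from 71703568 to 71734202 in the deposited table) was at 125, 166, 76.2 and 50.8 CPM in controls 1, 2, 3 and 5, against 305, 197, 224 and 234 CPM in knockouts 1 to 4. All knockout hearts lay above CRE 2, the highest control. The log2 fold change was 1.32 (SE 0.34, 95% interval 0.57 to 2.07, edgeR adjusted p = 0.280; DESeq2 adjusted p = 0.00629). Pdk2 also separated, by less, at 60.1 to 159 CPM in CRE and 167 to 245 CPM in CS7KO (log2 0.72, SE 0.34, adjusted p = 0.420; 0.28 without CRE 3 and CRE 5). Pdk4, the isoform switched on by fasting and fatty acids, was not on the list of 33; it ranged from 27.9 to 463 CPM in CRE and from 148 to 2056 CPM in CS7KO, and the groups overlapped (log2 1.42, SE 0.96, adjusted p = 0.582).

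Glycogen synthesis genes had fold changes above 0, and none passed the edgeR test. Ugp2, which makes the glucose donor UDP-glucose, was at 143, 190, 129 and 55.8 CPM in controls 1, 2, 3 and 5, against 324, 203, 297 and 228 CPM in knockouts 1 to 4. Gbe1, the branching enzyme, was at 15.8, 56.8, 25.4 and 14.9 CPM in controls 1, 2, 3 and 5, against 104, 47.5, 69.9 and 47.0 CPM in knockouts 1 to 4. Ugp2 separated the groups; for Gbe1 CRE 2 lay above CS7KO 2 and CS7KO 4. The log2 fold changes were 1.08 (SE 0.37, edgeR adjusted p = 0.303) and 1.30 (SE 0.44, adjusted p = 0.301). With CRE 3 and CRE 5 left out these were 0.62 and 1.02. Gys1, the muscle glycogen synthase, ranged from 23.6 to 78.9 CPM in CRE and from 56.0 to 137 CPM in CS7KO (log2 1.04, SE 0.43, adjusted p = 0.367), and 0.14 without CRE 3 and CRE 5. Gyg, glycogenin, which primes the glycogen particle, was at 208, 163, 103 and 58.4 CPM in controls 1, 2, 3 and 5, against 181, 168, 129 and 190 CPM in knockouts 1 to 4. Its groups overlapped (log2 0.45, SE 0.34, adjusted p = 0.623).

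Glycogen breakdown held the largest fold change above 0 among the 32 genes, that of Pygb, which did not pass the edgeR test. Pygb, the phosphorylase named for brain (ENSMUSG00000033059, chromosome 2 from 150628655 to 150673678 in the deposited table), was at 440, 604, 220 and 93.3 CPM in controls 1, 2, 3 and 5, against 869, 903, 833 and 1051 CPM in knockouts 1 to 4. The knockout hearts lay close together and all above the highest control. The means were 339 ± 227 and 914 ± 95.8 CPM (SD, n = 4 each), with a log2 fold change of 1.68 (SE 0.49, 95% interval 0.59 to 2.77, edgeR adjusted p = 0.291; DESeq2 adjusted p = 0.00747) and 0.71 without CRE 3 and CRE 5. Pygm, the muscle phosphorylase, was at 525, 527, 353 and 205 CPM in controls 1, 2, 3 and 5, against 596, 699, 534 and 833 CPM in knockouts 1 to 4. CRE 1 and CRE 2 lay just under CS7KO 3 (log2 0.80, SE 0.36, adjusted p = 0.404; 0.25 without CRE 3 and CRE 5). Pgm1, which turns the released glucose 1-phosphate into the glycolytic glucose 6-phosphate, was at 99.6, 132, 81.6 and 36.4 CPM in controls 1, 2, 3 and 5, against 187, 137, 168 and 140 CPM in knockouts 1 to 4. It separated as well, with CRE 2 just under CS7KO 2 (log2 0.93, SE 0.34, adjusted p = 0.327; 0.44 without CRE 3 and CRE 5).

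The balance between the phosphorylases was compared as well, in a measure that needs no library size. Per length, Pygb made up 36%, 43.4%, 29.5% and 23.3% of the 2 forms in controls 1, 2, 3 and 5, against 49.4%, 46.4%, 51.1% and 45.8% in knockouts 1 to 4. Every knockout heart thus had a larger Pygb share than every control, 48.2 ± 2.51% against 33 ± 8.6% (SD, n = 4 each). The log2 ratio of Pygb to Pygm was -0.83, -0.38, -1.26 and -1.72 in controls 1, 2, 3 and 5, against -0.04, -0.21, 0.06 and -0.24 in knockouts 1 to 4. The difference of 0.94 had the smallest p that 70 assignments can give (exact permutation test on both sides, p = 0.0286), and 0.286 after adjustment over the 10 ratios compared, so it did not pass. Without CRE 3 and CRE 5 it was 0.50. The other 8 ratios, among them Ldha to Ldhb, Eno1 to Eno3 and Slc2a1 to Slc2a4, had adjusted p-values of 0.886, and their groups overlapped.

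**Figure D4:**
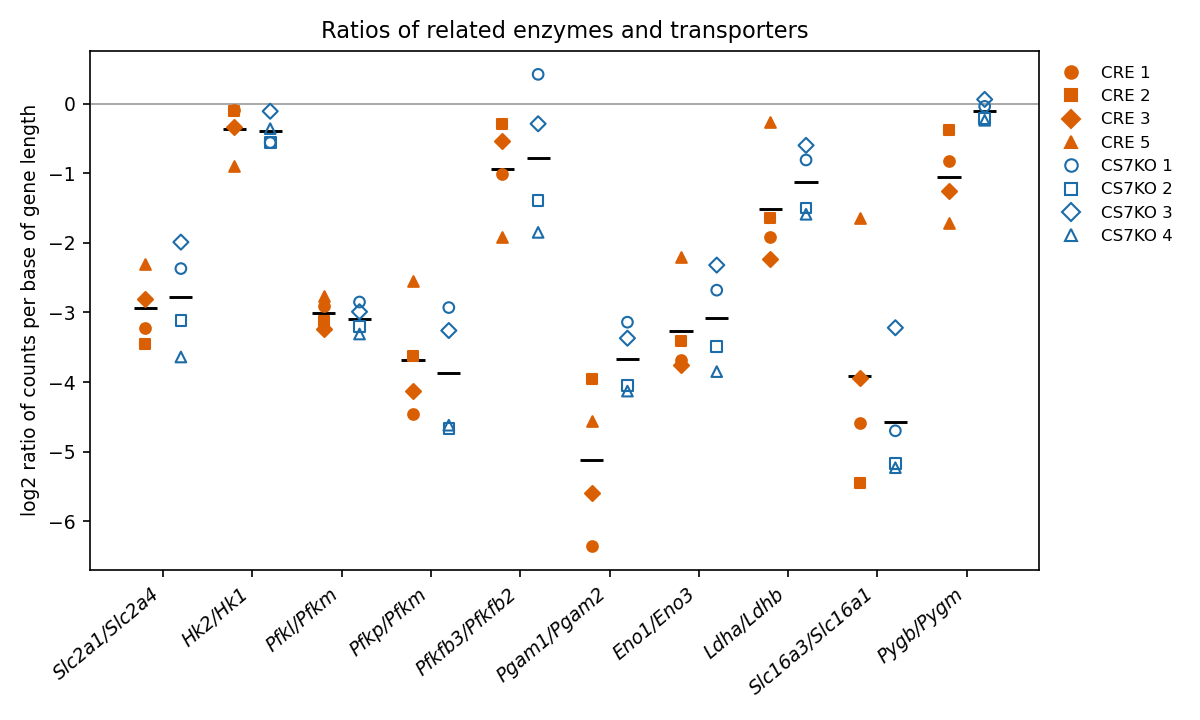
Log2 ratio of counts per base of gene length for 10 pairs of related genes, with each CRE library as a filled orange symbol, each CS7KO library as an open blue one and a black bar at each group's mean. In Pygb/Pygm the groups do not overlap (means of -1.05 and -0.11), Pgam1/Pgam2 lies higher in CS7KO with overlap, and in the other pairs the groups are mixed.

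Promoters are shown for the 2 isoform pairs whose ratios had the smallest exact permutation p, neither of which passed after adjustment. Pgam1 separated the groups and Pgam2 did not, while both Pygb and Pygm did. Hk1 also separated and Hk2 did not, but that pair is not printed. The RefSeq sequences run from 250 bases before to 50 after the start of the gene, on build GRCm38.p6, and capitals mark ACGTG or GCGTG, known as hypoxia response cores, on either strand.
Pgam1, chr19:41911621-41911920, plus strand: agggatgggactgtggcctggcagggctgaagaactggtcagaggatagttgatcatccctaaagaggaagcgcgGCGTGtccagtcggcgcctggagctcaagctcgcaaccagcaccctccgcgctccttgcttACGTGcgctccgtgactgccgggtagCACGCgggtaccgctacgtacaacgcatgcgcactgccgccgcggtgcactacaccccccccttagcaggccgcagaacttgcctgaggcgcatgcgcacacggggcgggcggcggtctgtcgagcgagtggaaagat
Pgam2, chr11:5803747-5804046, minus strand: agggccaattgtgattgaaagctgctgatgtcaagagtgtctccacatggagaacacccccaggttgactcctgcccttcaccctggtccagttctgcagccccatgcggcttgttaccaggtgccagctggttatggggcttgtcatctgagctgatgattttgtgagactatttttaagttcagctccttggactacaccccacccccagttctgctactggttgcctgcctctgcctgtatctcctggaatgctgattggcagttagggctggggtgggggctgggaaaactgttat
Pygb, chr2:150786546-150786845, plus strand: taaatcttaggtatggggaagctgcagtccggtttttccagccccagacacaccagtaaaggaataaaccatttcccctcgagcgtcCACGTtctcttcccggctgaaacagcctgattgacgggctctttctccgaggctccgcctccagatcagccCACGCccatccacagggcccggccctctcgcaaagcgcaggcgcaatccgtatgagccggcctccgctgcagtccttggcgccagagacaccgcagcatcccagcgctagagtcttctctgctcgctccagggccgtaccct
Pygm, chr19:6384158-6384457, plus strand: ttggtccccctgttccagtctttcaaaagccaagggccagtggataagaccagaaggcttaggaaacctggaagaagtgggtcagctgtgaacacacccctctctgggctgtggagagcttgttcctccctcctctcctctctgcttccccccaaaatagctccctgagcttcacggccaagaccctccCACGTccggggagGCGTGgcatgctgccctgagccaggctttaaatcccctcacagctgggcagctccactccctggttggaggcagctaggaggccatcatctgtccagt
The Pgam1 window held 30 CpG dinucleotides and 3 marked matches, and the Pgam2 window 1 CpG and 0 matches. That of Pygb held 21 CpG and 2 matches, and that of Pygm 4 CpG and 2 matches. In the hexokinase pair the muscle form was not poor in CpG. The Hk2 window held 25 CpG and 2 ACGTG matches, and the windows of Hk1 held 20 and 1 CpG.

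Promoters were in the table for 30 of the 32 tested genes, with 49 windows in all and with Slc2a3 and Slc2a4 not among them. ACGTG was found on either strand in 44.9% of the 49 windows and in 19.6% of 32851 windows of all genes, and GCGTG in 46.9% and 32.4%. The E-box CACGTG, which contains ACGTG, was found in 12.2% and 7.15%, and the GC box GGGCGG in 53.1% and 35.7%. TATAAA, the TATA box, was found in 6.12% and 13.6%, and CAGAC, a Smad core, in 40.8% and 49.6%. The windows were also richer in GC, with a median of 60.3% against 52.7%, and in CpG, with 18 against 7. Windows of one gene overlap in part, and a match describes letters, not binding.

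The controls differed among themselves far more than the knockout hearts. The ratio of the highest to the lowest library was larger in CRE than in CS7KO for 27 of the 30 genes with no library at 0, with medians of 3.46 and 1.55. CRE 5 was the lowest control for 23 of the 32 genes. It lay below all 4 CS7KO libraries for 27 genes, CRE 3 for 25, CRE 2 for 19 and CRE 1 for 17. CRE 1 lay above all 4 CS7KO libraries for 10 genes: Gpi1, Pfkl, Aldoa, Tpi1, Pgam2, Eno1, Eno3, Pkm, Ldha and Ldhb. In that library the Spearman correlation of the deviations with gene length was -0.51 over the 32 genes and -0.27 over all 16002, a description across genes. Over the 32 genes it was -0.24 in CRE 3, 0.35 in CRE 5, 0.26 in CS7KO 1 and 0.40 in CS7KO 3. In CRE 2, CS7KO 2 and CS7KO 4 it lay between -0.06 and 0.03.

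Together the matched genes took 1.87%, 1.28%, 0.682% and 0.206% of all counts in controls 1, 2, 3 and 5, against 1.34% to 1.48% in the knockouts. Their median deviation from each gene's own mean was 0.08 in CRE 1 and in CRE 2, -0.61 in CRE 3 and -1.23 in CRE 5, and 0.25 to 0.58 in CS7KO (log2). The 2 libraries with the lowest levels were thus those with 41.1% and 69.8% of counts in mitochondrially encoded genes, and CRE 5 also had the lowest cardiomyocyte marker sum. The part of either in the result was not tested. With the mitochondrially encoded and the 10 most counted genes removed before scaling, 29 of the 32 genes were higher. The median was 0.78, against 0.08 for all genes. That removal bears on the scaling alone and does not test the state of CRE 3 and CRE 5. Leaving out CRE 3 and CRE 5 leaves no female control, and the fit kept its term for labelled sex. Its genotype difference then rests on CRE 1 and CRE 2 against CS7KO 1 and CS7KO 2, all labelled male. In that setting the median was 0.25, against 0.16 for all genes, and 21 of the 32 were higher. Pygb, Hk1, Pdk1 and Pgam1 had log2 fold changes of 0.71, 0.75, 0.75 and 0.76 there.

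**Figure D5:**
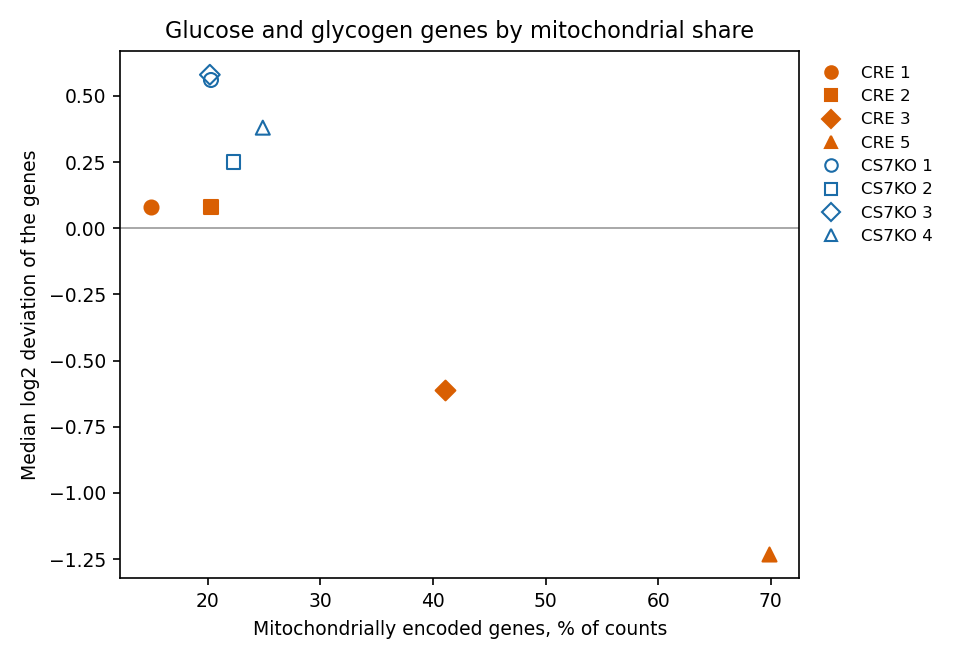
Median log2 deviation of the 32 tested genes from their own means, by library, against the share of counts in mitochondrially encoded genes. The 4 CS7KO libraries, at 20.2% to 24.9%, lie between 0.25 and 0.58; CRE 1 and CRE 2 lie at 0.08, and CRE 3 and CRE 5, with shares of 41.1% and 69.8%, at -0.61 and -1.23.

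Both controls with high mitochondrial shares were the hearts labelled female, so the sexes were compared with that in view. Among females the genotype difference had a median log2 of 1.34 over the 32 genes, with 29 higher, and among males 0.32, with 22 higher; over all genes the medians were -0.09 and 0.15. The female difference was the larger one for 28 of the 32 genes, against 43.6% of all genes. No gene of the 32, and 0 of all 16002, passed the edgeR test of the interaction at an adjusted p under 0.05 (0%); at an unadjusted p under 0.05 there were 8 of the 32 and 7.08% of all. The 8 were Slc2a4, Hk2, Pfkfb1, Tpi1, Pgk1, Slc16a1, Gys1 and Pygb. Hk2 had the smallest p of the 8, with a log2 difference of 0.35 in males that was 1.75 smaller than in females (edgeR adjusted p = 0.667). With 2 libraries for each sex and genotype, labelled sex and the state of CRE 3 and CRE 5 cannot be told apart. The male difference and the fit without CRE 3 and CRE 5 both rest on CRE 1, CRE 2, CS7KO 1 and CS7KO 2. They are not separate results.

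Of 89 other genes of glucose handling, 83 were tested and 0 passed. Of the 83, 57 had a fold change above 0 and 26 below, where 51.9% of all genes lay above 0, and the median was 0.28. DESeq2 called 9 of them higher, where it called 1.55% of all genes higher and 3.14% in all. The gene with the smallest p was Klf15, a transcription factor of cardiac glucose and lipid metabolism known to raise Slc2a4 in muscle, at 23.0, 19.8, 18.0 and 12.0 CPM in controls 1, 2, 3 and 5, against 60.3, 42.9, 62.3 and 46.1 CPM in knockouts 1 to 4. Its groups lay well apart, including from CRE 1 and CRE 2 (log2 1.56, SE 0.27, edgeR adjusted p = 0.156; DESeq2 adjusted p = 1.0e-04). Pik3r1, a subunit of the insulin-signalling PI3-kinase, averaged 48.9 ± 23.6 CPM in controls against 133 ± 55.9 in knockouts and also separated (log2 1.46, SE 0.39, adjusted p = 0.287). Another list of 12 genes held pyruvate import, the pyruvate dehydrogenase complex and its regulators, among them the inhibiting kinases Pdk3 and Pdk4. Of these 12 genes 11 had fold changes above 0, with a median log2 of 0.68. Pdha1, a catalytic subunit of the dehydrogenase that the Pdk kinases inhibit, was at 176, 456, 132 and 79.3 CPM in controls 1, 2, 3 and 5, against 694, 518, 518 and 711 CPM in knockouts 1 to 4. It separated (log2 1.74, SE 0.48, adjusted p = 0.291), as did Pdpr, a regulator of the dehydrogenase phosphatase (log2 2.11, SE 0.62, adjusted p = 0.291).

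Of 19 other glycogen genes 15 had fold changes above 0, where 51.9% of all genes did, with a median log2 of 0.55. At an unadjusted edgeR p under 0.05, 6 lay higher and 3 lower, where 6.12% of all genes lay higher and 6.52% lower. The libraries separated upwards for 4 and downwards for 1, against 6.16% and 4.13% of all genes. Epm2a, the glycogen phosphatase laforin, averaged 15.5 ± 7.37 CPM in controls against 34.3 ± 2.85 in knockouts (log2 1.22, SE 0.32, edgeR adjusted p = 0.285). Ppp1r3a, which targets a phosphatase to glycogen in muscle, was at 57.6 ± 36.6 and 155 ± 73.9 CPM (log2 1.54, SE 0.44, adjusted p = 0.291). Epm2a separated the groups and Ppp1r3a did not. In the side branches 6 of 15 were higher, with a median of -0.14, and the 2 with the smallest p, Tkt and Pgls of the pentose phosphate pathway, had log2 values of -0.68 (SE 0.30) and -1.18 (SE 0.52). In the list of other transport genes the median was 0.08 and the smallest p-values were those of G6pc3 (log2 0.50, SE 0.25) and Bsg (0.66, SE 0.50). In the list of other glycolytic genes the median was 0.06 and the smallest were those of Tigar (0.56, SE 0.27) and Gapdh (-3.17, SE 1.67). Txnip, an inhibitor of glucose uptake that glucose itself induces, was at 481 ± 274 and 522 ± 260 CPM (log2 0.15, SE 0.49).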

How the data were processed

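Per the labels, Trizol RNA of whole hearts was sequenced as polyadenylated RNA. What the authors deposited is a single table of unnormalized counts by gene, with each gene's length and coordinates. HTSeq 0.6.1, Cufflinks 2.1.1, TopHat2 2.0 and CASAVA, with mm10 and GRCm38.p6, appear in the submitters' processing notes without their roles. Use of strand is not given in those sources. The table's coordinates do not follow GRCm38, so its build is unsettled.

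The members and gene lists were chosen with earlier results of these data known. Genes were filtered by filterByExpr (minimum count 10, minimum total 15), scaled by TMM and tested with edgeR 4.0.16 (robust quasi-likelihood, genotype and labelled sex) in R 4.3.3, with Benjamini-Hochberg adjustment over 16002 genes. Fold changes are CS7KO over CRE, and RPKM are CPM divided by gene length in kilobases. Ratios of counts plus 0.5, divided by gene length, used exact permutation tests. Values are printed in full for the 10 genes with the smallest p, for genes of a ratio and for genes under 10 counts in a library, and otherwise as ranges. Of the other glucose genes, the 2 with the smallest p per list are named, with Pdk4, Txnip and Gapdh. The replicate numbers 1, 2 and 3 occur in both groups, but deviations of same-numbered libraries correlated at 0.04, -0.09 and 0.35, so they do not pair the samples. Replicates differed beyond sampling noise (chi-square per degree of freedom at least 11.0). Near-identical copies were found with blastn 2.17.0 among GENCODE M21 transcripts, at 90% identity over at least 100 bases; copies held at most 4.59% of the counts of a member and its copies together, except for Pfkfb2, at up to 14.5%. On simulated counts of 15219 genes, 34 of 100 4-fold differences and 4 of 99 2-fold ones were found again, and 1 of 15020 unchanged genes was called. Genes were drawn independently there, so shifts shared across genes, as in CRE 1, CRE 3 and CRE 5, were not simulated. These counts need not hold for the real libraries. Alternatives were DESeq2 1.42.0, limma-voom 3.58.1, other scalings, filters, covariates and libraries. Floors cover counting error only; fitted intervals and p-values measure the spread between these samples.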

Additional observations from a re-analysis of the deposited data

Results flagged for a closer look

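Every gene and the summed share were checked for a library far from the other 3 of its group, and 3 of 66 groups were flagged. Chance gives about 1 in 20, so this count is near what chance gives. Gpi1 was at 1131 CPM in CRE 1, against 435 to 538 CPM in the other controls. Pgam1 was at 41.6 CPM in CRE 2, against 19.7 to 23 CPM in the other controls, and lay nearest to the knockout hearts there. Slc16a3 was at 11.2 CPM in CRE 1, against 4.95 to 5.68 CPM in the other controls, and overlaps Csnk1d on the opposite strand.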

How the results depend on the processing

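The count of the 32 genes that passed was 0 with all libraries, 4 with DESeq2 and 4 with no filter on low counts, of which 3 (Hk1, Pdk1 and Pygb) were shared, and 0 in every other setting run. Without the filter 338 of 48657 genes passed (0.695%, with 0.436% higher and 0.259% lower), against 6 of 16002 with it. Without a filter the median of all genes moved to 0.57, and the median of the 32 genes lay 0.28 above it, where it lay 0.70 above it with the filter. The other glucose genes gave 0 passing, except for 9 with DESeq2 and 8 with no filter, where 3.14% and 0.695% of all genes passed. Of 704 fold changes under alternatives, 654 kept their direction and side of the threshold, 8 newly passed and 42 changed sign; 18 of the 32 genes never changed sign. Leaving out 1 library at a time gave 27 to 31 higher genes, medians of 0.56 (without CRE 5) to 0.96 (without CRE 1), and 0 passing. Leaving out CRE 1 and CRE 5 gave 28 higher and a median of 0.70. No term for labelled sex gave 27 higher and a median of 0.66. A replicate block by number, possible for 6 libraries, gave 0 passing genes, 27 higher and a median of 0.52 (all genes 0.16), and turned Aldoa to -0.02 and Ldhb to -0.47; the numbers did not pair the samples.

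Fold changes that reversed without CRE 3 and CRE 5 were Aldoa, Tpi1 and Eno1 (each -0.56), Ldhb (-0.84), Gpi1 (-0.28), Pkm (-0.16), Ldha (-0.14), Slc16a1 (-0.12), Slc16a3 (-0.03) and Pfkfb1 (0.26). Leaving out CS7KO 3 as well could change these values little and is no separate check. With no female control, that library serves only the term for labelled sex. In that setting the reversed fold changes were Aldoa and Eno1 (each -0.55), Tpi1 (-0.54), Ldhb (-0.82), Gpi1 (-0.26), Pkm (-0.14), Ldha (-0.13), Slc16a1 (-0.11), Slc16a3 (-0.02) and Pfkfb1 (0.28). Without CRE 1 and CRE 5 they were Eno3 (0.17), Pfkfb3 (-0.15) and Slc2a3 (-0.02). Eno3 turned to 0.05 with limma-voom and 0.01 with no filter, Eno1 to -0.01 and Ldhb to -0.17 with no term for sex, and Eno1 to -0.06 with the length trend removed, a setting chosen after seeing the data. With 1 library left out, ranges crossed 0 for Aldoa (-0.06 to 0.84), Pgam2 (-0.63 to 0.12), Eno1 (-0.21 to 0.47), Eno3 (-0.49 to 0.43) and Ldhb (-0.40 to 0.49).

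The number of ratios past an unadjusted p of 0.05 was 1, and 0 to 2 with 1 library left out; Pgam1/Pgam2 passed without CRE 2 (1.84, exact permutation p = 0.0286), and Pygb/Pygm missed without any 1 CS7KO library (exact permutation p = 0.0571). Ratio differences reversed without CRE 1 and CRE 5 for Pfkfb3/Pfkfb2 (-0.37), Pfkl/Pfkm (0.10), Pfkp/Pfkm (0.01) and Slc16a3/Slc16a1 (0.12), and without CRE 3 and CRE 5 for Pfkfb3/Pfkfb2 (-0.13), Pfkp/Pfkm (0.17) and Slc16a3/Slc16a1 (0.44). With 1 library left out, ratio differences crossed 0 for Slc2a1/Slc2a4 (-0.10 to 0.45, 0.16 with all libraries), Hk2/Hk1 (-0.22 to 0.05, -0.04 with all libraries), Pfkl/Pfkm (-0.16 to 0.01, -0.08 with all libraries), Pfkp/Pfkm (-0.49 to 0.20, -0.18 with all libraries), Pfkfb3/Pfkfb2 (-0.24 to 0.52, 0.16 with all libraries), Eno1/Eno3 (-0.08 to 0.53, 0.18 with all libraries) and Slc16a3/Slc16a1 (-1.19 to 0.08, -0.67 with all libraries). The cause of these changes was not tested. With 4 libraries a group, most 2-fold changes were missed in the simulated data, which held no shifts shared across genes.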

Other observations

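Gapdh, the glycolytic dehydrogenase often used as a reference, had 724, 9.15, 229 and 11.6 CPM in controls 1, 2, 3 and 5, against 8.79, 9.73, 106 and 9.04 CPM in knockouts 1 to 4, so CRE 1, CRE 3 and CS7KO 3 stood far above the rest. Summed with 197 near-identical copies it had 829, 79.7, 322 and 50.6 CPM in controls 1, 2, 3 and 5, against 143, 100, 214 and 98.4 CPM in knockouts 1 to 4, with 12.7% to 93.9% of the sum in the copies. The copy with the most counts was Peli2, a protein-coding gene matched at 90.8% identity over 1085 bases. It had 2724 counts against 28795 for Gapdh, so the sum and the share include reads of another gene. The row of Gapdh alone gave a log2 fold change of -3.17 (SE 1.67, edgeR adjusted p = 0.464).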
